A study of Arabidopsis thaliana with 9 samples.

Results

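The genes described here are 10 Arabidopsis thaliana genes of the enzymes that remove superoxide and hydrogen peroxide, chosen by locus ID from the 33602 genes in the count files. They are 4 ascorbate peroxidases, APX1 (AT1G07890), APX2 (AT3G09640), SAPX (AT4G08390) and TAPX (AT1G77490); 5 superoxide dismutases, CSD1 (AT1G08830), CSD2 (AT2G28190), CSD3 (AT5G18100), FSD1 (AT4G25100) and MSD1 (AT3G10920); and the catalase CAT1 (AT1G20630). Of these, 9 passed the filter on low counts and were tested, and APX2 did not pass. In rosettes of both pdx3 mutants the transcripts of TAPX and APX1 were lower than in wild type and CAT1 was higher. SAPX was lower in pdx3-4 and with both alleles together, and none of the 5 superoxide dismutases passed the test. The TAPX calls held in all 21 alternative settings of the analysis. In pdx3-3 the calls of APX1 and CAT1 were each lost in 11 of the 21, and in pdx3-4 in 8 and 5.

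The study sequenced polyadenylated RNA from whole rosettes, 21 days old, of wild type, of pdx3-3 (insertion line SALK_054167C) and of pdx3-4 (insertion line GK-260E03). All plants were of the Col-0 ecotype and grew on soil under 16 h of light and 8 h of dark. Each genotype had 3 biological replicates, giving 9 libraries, and each mutant genotype is a single insertion allele. PDX3 encodes the oxidase that converts the phosphorylated forms of pyridoxine and pyridoxamine into pyridoxal phosphate, the active form of vitamin B6.

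Superoxide dismutases turn superoxide into hydrogen peroxide and oxygen, and are grouped by their metal cofactor into copper/zinc (CSD), iron (FSD) and manganese (MSD) enzymes. Ascorbate peroxidases reduce the hydrogen peroxide to water with ascorbate as the electron donor, and catalases break it down without a donor, mostly in peroxisomes. Each compartment of a leaf cell has its own set: APX1 and CSD1 act in the cytosol, SAPX in the chloroplast stroma, TAPX on the thylakoid membrane, CSD2 in the chloroplast, CSD3 in the peroxisome and MSD1 in the mitochondrion. The copper/zinc enzymes are also part of a copper economy. When copper is scarce, the transcription factor SPL7 raises miR398, which lowers CSD1, CSD2 and their copper chaperone CCS, and raises FSD1, so that an iron enzyme stands in for copper enzymes.

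The 3 miR398 genes give 3p strands with 1 common seed (bases 2 to 8, in capitals), and these sequences are shown because CSD1, CSD2 and CCS are their known targets. They were read from the RefSeq annotation of the TAIR10.1 genome, at chr2:1041012-1041032 for miR398a and at chr5:4691107-4691127 and chr5:4694778-4694798 for miR398b and miR398c, all on the plus strand.
miR398a-3p: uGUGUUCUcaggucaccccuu
miR398b-3p: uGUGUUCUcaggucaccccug
miR398c-3p: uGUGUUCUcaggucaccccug
The miR398b and miR398c strands are identical. The best ungapped match to them was sought over all annotated transcripts of each protein-coding gene. The sites of the known targets are given here 5′ to 3′ as DNA, with the bases opposite the seed in capitals. The CSD1 site lies in the 5′ UTR between chr1:2827177 and 2827685 on the plus strand and spans an intron; the CSD2 site lies in the coding sequence at chr2:12015572-12015592 on the plus strand; and the CCS site lies in the coding sequence at chr1:4267521-4267541 on the minus strand.
CSD1 site: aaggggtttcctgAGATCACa
CSD2 site: tgcgggtgacctgGGAAACAt
CCS site: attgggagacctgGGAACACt
The CSD1 site had 17 Watson-Crick pairs and 4 mismatches, and 0.0328% of 27440 genes held a match as good. The CCS site had 15 pairs, 1 G:U pair and 5 mismatches, and 1.44% of genes held one as good. The CSD2 site had 13 pairs, 3 G:U pairs and 5 mismatches, and 11.7% of genes, FSD1 among them, held one as good; no gap or bulge was allowed, so this score describes these letters only.

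The mutants were checked at PDX3 (AT5G49970) itself. It was at 90.1, 88.9 and 78.7 CPM in wild type (CPM is the count over the library total, scaled to a total of 1000000), at 9.24, 8.22 and 10.8 CPM in pdx3-3 and at 43.4, 51.5 and 42.7 CPM in pdx3-4. Both alleles were below every wild-type library, pdx3-3 the further of them, in the direction their labels give. Total counts ran from 15912737 to 21938941 per library. Chloroplast-encoded genes took 0.536% and 0.174% of counts in pdx3-3 libraries 1 and 2 against 0.0162% to 0.0532% in the others, and the calls of APX1 and CAT1 in pdx3-3 are also given without those 2 libraries. The summed level of the 5 leaf markers was 49860 to 52780 CPM in wild type, 37700 to 42960 CPM in pdx3-3 and 38610 to 40440 CPM in pdx3-4; all 5 passed the test as lower in both alleles together, and their part in the results below was not tested. Some markers of other organs moved too. The 5 floral organ markers summed to between 0.721 and 4.71 CPM, and 4 were tested. With both alleles together only AG (AT4G18960) was called. It fell by 2.95 ± 0.235 log2 units (SE, adjusted p = 3.75e-06), from 2.30 to 3.65 CPM in wild type to at most 0.572 CPM in the mutants. SEP3, AP1 and AP3 were not called (adjusted p = 0.160, 0.71 and 0.966). In pdx3-3 alone 1 floral marker was higher and 1 was lower. Of the 6 root markers, 5 were too low to test, and SCR (AT3G54220), also a leaf bundle sheath gene, fell by 0.46 ± 0.0623 (adjusted p = 0.00015). Their part in the results was not tested. In whole rosettes, fewer cells of a type and less RNA per cell cannot be told apart.

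Counts were compared with edgeR's quasi-likelihood test in 1 fit of the 9 libraries, with Benjamini-Hochberg adjustment over the 18783 genes that passed the filter, and a gene is called under 0.05; every adjusted p for a gene below is from this test unless another is named. Large shares of all genes changed. In pdx3-3 against wild type 36.4% of genes were called, 19.0% higher and 17.5% lower, and among the 9 tested genes described here 1 was higher and 2 were lower. In pdx3-4 against wild type 39.2% were called, 20.9% higher and 18.4% lower, and 1 of the 9 was higher and 3 were lower. Between the alleles 6.16% were called and 0 of the 9. With both alleles set together against wild type 43.3% were called, 21.7% higher and 21.6% lower, and 1 of the 9 was higher and 3 were lower. The number called was therefore close to the share over all genes. By kind, 3 of 3 tested ascorbate peroxidases were called lower in both alleles together and 0 of 5 superoxide dismutases were called, a split that was not itself tested. It holds for the chosen genes and not for the whole families. Among related genes given below, APX3 and APX6 were not called with both alleles together. APX5, the peroxidase-like TL29 and the superoxide dismutases FSD2 and FSD3 were called lower in that comparison. By single allele, APX5 was not called in pdx3-4. APX6 was called lower in pdx3-3, a call that only 1 of 21 alternatives kept. The median log2 fold change of the 9 was -0.22 in pdx3-3 and -0.19 in pdx3-4, beside -0.03 and -0.01 over all genes tested.

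**Figure D1:**
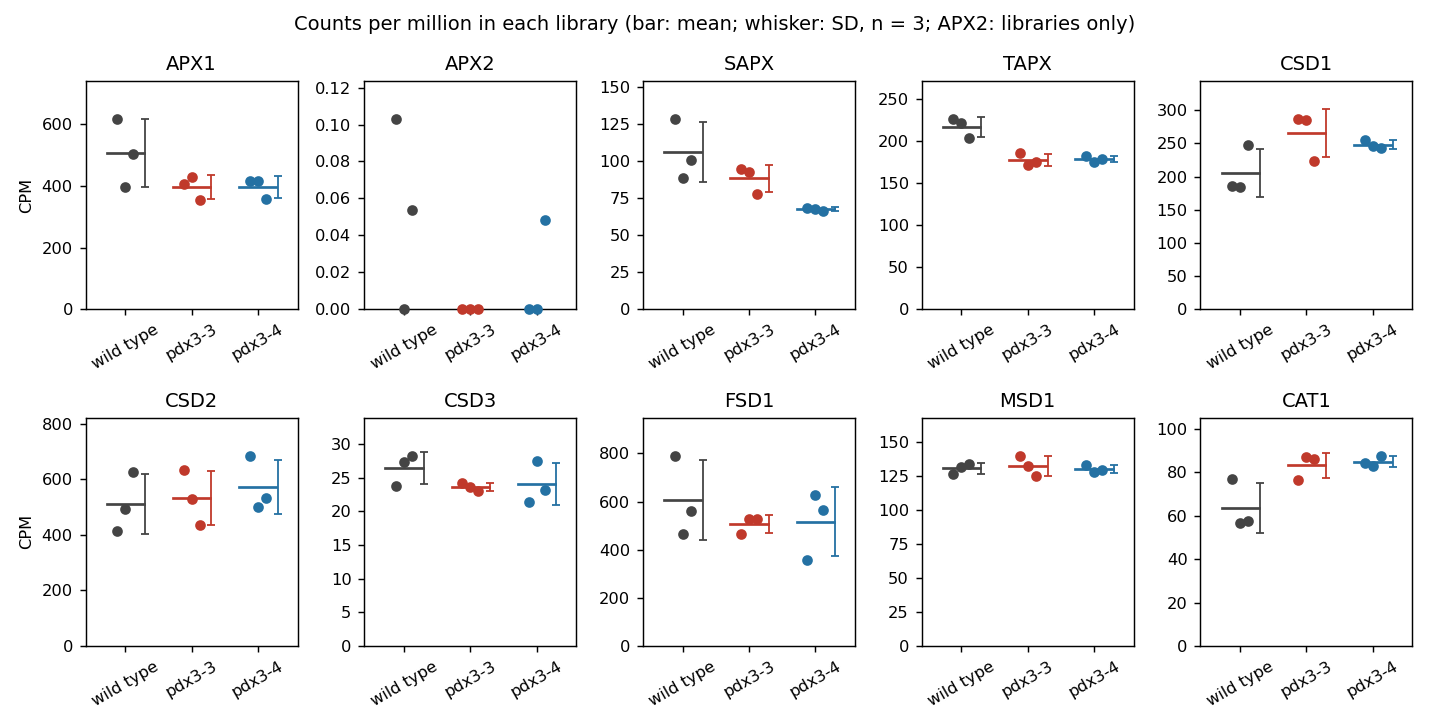
CPM of the 10 genes, 1 panel a gene, with each library as a point, the mean as a bar and the SD as a whisker (n = 3; libraries only for APX2). The TAPX points of both mutants lie below all wild-type points, the CSD2 and FSD1 points spread widely within each genotype, and APX2 stays at or under 0.103 CPM.

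TAPX, the thylakoid-bound ascorbate peroxidase on chromosome 1 (chr1:29117500-29121093, plus strand, TAIR10.1), was lower in both mutants. It was at 226, 222 and 204 CPM in wild type, at 186, 172 and 175 CPM in pdx3-3 and at 183, 175 and 179 CPM in pdx3-4. Every mutant library was below every wild-type library. The log2 fold change was -0.35 ± 0.0752 (SE, adjusted p = 0.00428) in pdx3-3 and -0.33 ± 0.0751 (adjusted p = 0.00498) in pdx3-4, and the alleles did not differ beyond their error (difference -0.01, 95% interval -0.18 to 0.15). The call held in each allele in all 21 alternative settings, with adjusted p-values up to 0.0479.

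Groups that do not overlap were common in these data. Over all tested genes the CPM ranges of 47.0% did not overlap between pdx3-3 and wild type, and 49.1% did not between pdx3-4 and wild type. Of the 9 tested genes, 1 did not overlap in pdx3-3 (TAPX) and 3 did not in pdx3-4 (TAPX and SAPX lower, CAT1 higher).

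SAPX, the stromal ascorbate peroxidase (chr4:5314871-5317963, plus strand), was at 128, 88.6 and 101 CPM in wild type, at 94.8, 92.4 and 78.1 CPM in pdx3-3 and at 68.6, 67.7 and 66.1 CPM in pdx3-4. The pdx3-4 libraries lay close together below all the others, while pdx3-3 overlapped wild type. In pdx3-4 SAPX fell by 0.70 log2 units (± 0.124 SE, adjusted p = 0.00113), which is 0.615 of the wild-type level. In pdx3-3 the log2 fold change was -0.31 ± 0.123 and was not called (adjusted p = 0.0686), though it passed with upper-quartile scaling (0.0147) and without wild-type library 2 (0.0285). The difference between the alleles was 0.39 ± 0.124 (95% interval 0.11 to 0.66, adjusted p = 0.1003), so a stronger fall in pdx3-4 was not called by this test. It was called by DESeq2 (adjusted p = 0.0382), in a fit of the pair of mutants alone (adjusted p = 0.0209) and without wild-type library 1 (adjusted p = 0.0326). The pdx3-4 call held in all 21 alternatives. With both alleles together SAPX was called lower, and that call held in all 20 alternatives, with log2 fold changes of -0.63 to -0.35.

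APX1, the main cytosolic enzyme (chr1:2437281-2439665, plus strand), was at 616, 395 and 504 CPM in wild type, at 406, 430 and 355 CPM in pdx3-3 and at 416, 417 and 356 CPM in pdx3-4. Wild type ranged widely, and its library 2 lay among the mutants. The log2 fold change was -0.40 ± 0.137 (SE) in each allele, with adjusted p-values of 0.0411 in pdx3-3 and 0.0383 in pdx3-4, and with both alleles together it was -0.40 ± 0.116 (adjusted p = 0.0172). The calls depended on single libraries. Without wild-type library 1 the log2 fold change with both alleles together was -0.23 and the adjusted p was 0.104. In pdx3-3 the call was lost in 11 of 21 alternatives, including all but 1 of the 9 that left out a library, with adjusted p-values from 0.0535 to 0.156; without pdx3-3 libraries 1 and 2 it was 0.0883, with a larger fold (log2 fold change -0.56). In pdx3-4 it was lost in 8 of 21, with adjusted p-values from 0.0512 to 0.153. The direction was lower in each of these.

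APX2 (chr3:2956156-2958330, plus strand) is a heat- and high-light-inducible cytosolic ascorbate peroxidase. It had 2, 0 and 1 counts in wild type, 0 counts in all 3 pdx3-3 libraries and 0, 0 and 1 counts in pdx3-4. Its level was at most 0.103 CPM, and a count of 0 allows up to 3 counts, or 0.137 to 0.189 CPM depending on the library. No difference was detectable at this depth.

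**Figure D2:**
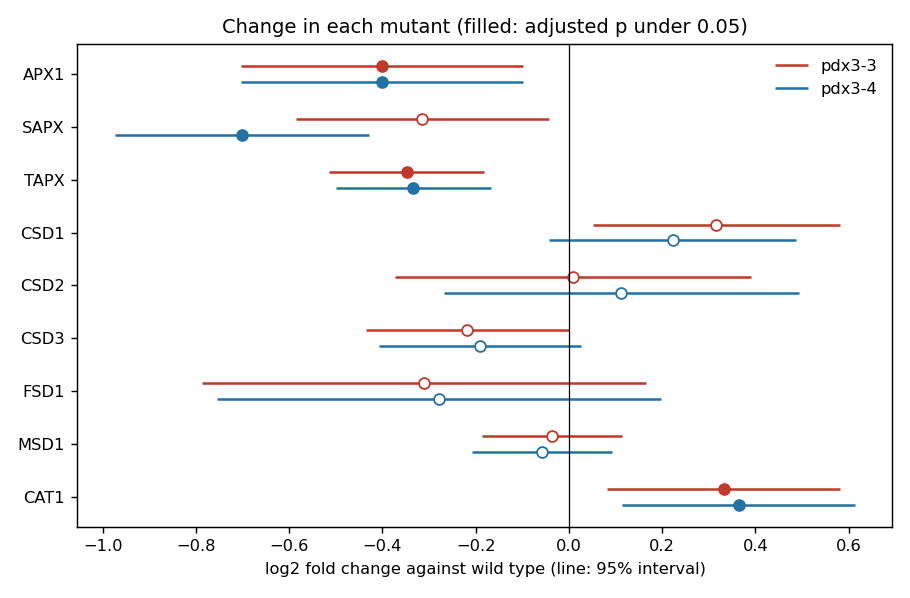
Log2 fold change against wild type in pdx3-3 (red) and pdx3-4 (blue) for the 9 tested genes, with the 95% interval as a line and filled circles where the adjusted p is under 0.05. APX1, SAPX and TAPX lie to the left of 0 in both alleles, CAT1 to the right, and MSD1 near 0 with the narrowest interval.

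Listed here as possible regulators of APX1 and APX2 were 11 genes, of zinc-finger (ZAT) proteins, heat shock (HSF) factors and ABI4. Of these, 10 were tested and 8 rose with both alleles together, with 0 lower. Their median log2 fold change was 1.69, beside 21.7% higher and a median of -0.02 over all genes tested. The list was not tested as a group. ZAT12 (AT5G59820), a zinc-finger protein needed for APX1 induction under oxidative stress, rose by 3.31 ± 0.28 (SE, adjusted p = 5.63e-06), and ZAT7 (AT3G46090) by 4.74 ± 0.355. ZAT10 (AT1G27730), which regulates APX2 under high light, rose by 2.65 ± 0.187, and HSFA3 (AT5G03720), a heat stress factor, by 2.54 ± 0.216. Over the same libraries APX1 was lower and APX2 stayed at or near 0 counts. Both promoters hold the heat shock element core GAANNTTC, on which heat shock factors bind, and are shown here for that reason: the 250 bases before the annotated start from the TAIR10.1 genome, plus strand, at chr1:2437031-2437280 for APX1 and chr3:2955906-2956155 for APX2, with the core in capitals.
APX1 upstream: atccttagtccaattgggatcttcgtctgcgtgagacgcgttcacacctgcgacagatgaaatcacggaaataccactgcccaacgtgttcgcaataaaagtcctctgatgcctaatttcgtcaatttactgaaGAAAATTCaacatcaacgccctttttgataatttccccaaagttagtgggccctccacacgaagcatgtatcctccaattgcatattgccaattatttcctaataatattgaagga
APX2 upstream: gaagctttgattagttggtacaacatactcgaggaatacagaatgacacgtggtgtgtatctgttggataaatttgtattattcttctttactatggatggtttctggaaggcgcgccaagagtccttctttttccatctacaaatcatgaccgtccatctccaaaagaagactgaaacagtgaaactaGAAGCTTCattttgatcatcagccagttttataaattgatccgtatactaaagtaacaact
The core begins 116 bases before the APX1 start and 61 bases before the APX2 start. Of the 10 genes these 2 hold it, on a motif that reads the same on both strands, and so do 9.55% of 27443 upstream regions of the same length. The W box core TTGAC was in 7 of the 10 (44.9% of all regions) and the as-1 core TGACG in 4 of the 10 (18.6%), each sought on both strands. A match describes these letters and is not shown to be a binding site.

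CAT1 (chr1:7146636-7150180, plus strand) is the least abundant of the 3 catalases in leaves. It was at 76.9, 56.4 and 57.6 CPM in wild type, at 76.5, 87.0 and 86.2 CPM in pdx3-3 and at 84.5, 82.7 and 87.6 CPM in pdx3-4. The pdx3-4 libraries were all above wild type, and pdx3-3 library 1 fell just under wild-type library 1. The log2 fold change was 0.33 ± 0.113 (SE, adjusted p = 0.0412) in pdx3-3 and 0.36 ± 0.113 (adjusted p = 0.0256) in pdx3-4. The pdx3-3 call was lost in 11 of 21 alternatives, with adjusted p-values up to 0.146, which was the value without pdx3-3 libraries 1 and 2, where the log2 fold change was 0.38. The pdx3-4 call was lost in 5 of 21, with adjusted p-values from 0.0544 to 0.0925; the losses came without wild-type library 2 or 3, without pdx3-4 library 1 or 3, and with upper-quartile scaling. With both alleles together CAT1 rose by 0.35 ± 0.0992 (adjusted p = 0.0156), and the call was lost without wild-type library 2 (0.0748), without wild-type library 3 (0.0594) and with upper-quartile scaling (0.0578).

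The other catalases moved further, and in opposite directions. CAT2 (AT4G35090), the main peroxisomal catalase of photosynthetic leaf cells, was at 1421 to 1777 CPM in wild type, 957 to 1011 CPM in pdx3-3 and 957 to 1162 CPM in pdx3-4. CAT3 (AT1G20620), a catalase of vascular tissue and ageing leaves, was at 1232 to 1857 CPM in wild type, 2420 to 2831 CPM in pdx3-3 and 2250 to 2689 CPM in pdx3-4. Neither gene overlapped between wild type and a mutant. With both alleles together CAT2 fell by 0.73 ± 0.085 (SE, adjusted p = 5.21e-05) and CAT3 rose by 0.74 ± 0.118 (adjusted p = 0.000531), on the log2 scale, and both calls held in all 20 alternatives. Per length (RPKM, CPM per kilobase of exon), the ratio of CAT3 to CAT2 was 0.603, 0.602 and 1.07 in wild type, 2.02, 2.35 and 2.07 in pdx3-3 and 1.58, 2.14 and 2.11 in pdx3-4. The summed level of the 3 catalases ran from 994 to 1232 RPKM over all libraries, and CAT1 made up 2.38% to 3.53% of it. CAT3 lies on the same strand directly upstream of CAT1, ending 95 bases before it starts. Read in the sense direction, the longest transcript of CAT1 shared no 50-base stretch with a transcript of another gene. The same held for the other genes of the 10. Stretches shared with antisense transcripts were not searched for.

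The superoxide dismutases gave 0 calls of 5 in either allele by edgeR, with raw p-values under 0.05 for CSD1 and CSD3 in pdx3-3, of 0.0236 and 0.0499. CSD1, the cytosolic copper/zinc enzyme (chr1:2827060-2829315, plus strand), was at 186, 184 and 247 CPM in wild type, at 287, 286 and 224 CPM in pdx3-3 and at 255, 246 and 243 CPM in pdx3-4. Wild-type library 3 and pdx3-3 library 3 each lay within the other group. The log2 fold change was 0.32 ± 0.12 (SE, adjusted p = 0.0613) in pdx3-3 and 0.22 ± 0.12 (adjusted p = 0.170) in pdx3-4. The CSD1 call depended on the setting: in pdx3-3 it passed with DESeq2 (0.0302), with scaling by library size only (0.0421), without pdx3-3 library 3 (0.0146) and without wild-type library 3 (0.00826), and in pdx3-4 without wild-type library 3 (0.0239). It overlaps AT1G08840 on the opposite strand over 211 bases, and the strand setting of the counting is not given in the sources used here.

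CSD2, the chloroplast copper/zinc enzyme (chr2:12014412-12016569, plus strand), was at 413, 495 and 627 CPM in wild type, at 633, 529 and 437 CPM in pdx3-3 and at 685, 501 and 531 CPM in pdx3-4. The ranges of the 3 genotypes overlapped. The log2 fold change was 0.01 (95% interval -0.37 to 0.39, adjusted p = 0.974) in pdx3-3 and 0.11 (-0.27 to 0.49, adjusted p = 0.643) in pdx3-4. CSD3, the peroxisomal enzyme (chr5:5987187-5988885, plus strand), was at 23.8, 27.3 and 28.3 CPM in wild type, at 24.2, 23.6 and 23.1 CPM in pdx3-3 and at 21.4, 27.5 and 23.1 CPM in pdx3-4. The groups overlapped in both alleles, and the log2 fold change was -0.22 ± 0.0984 (SE, adjusted p = 0.110) and -0.19 ± 0.0978 (adjusted p = 0.152), the latter at 0.0429 without pdx3-4 library 2. CSD3 overlaps 2 genes on the opposite strand, AT5G02875 over 405 bases and AT5G18110 over 142 bases.

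FSD1, the iron enzyme raised under low copper (chr4:12884300-12887011, minus strand), was at 790, 466 and 561 CPM in wild type, at 463, 528 and 529 CPM in pdx3-3 and at 356, 627 and 566 CPM in pdx3-4. Wild-type library 1 was the highest of all 9 and pdx3-4 library 1 the lowest. The log2 fold change was -0.31 (95% interval -0.79 to 0.16, adjusted p = 0.290) in pdx3-3 and -0.28 (-0.75 to 0.20, adjusted p = 0.340) in pdx3-4, the widest intervals of the 9 genes. MSD1, the mitochondrial manganese enzyme (chr3:3417940-3419892, plus strand), was at 126, 132 and 134 CPM in wild type, at 140, 132 and 125 CPM in pdx3-3 and at 133, 127 and 129 CPM in pdx3-4. Its log2 fold change was -0.04 (95% interval -0.19 to 0.11, adjusted p = 0.710) and -0.06 (-0.21 to 0.09, adjusted p = 0.539), the narrowest intervals of the 9.

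The 2 chloroplast iron superoxide dismutases outside the 10 genes did change. FSD3 (AT5G23310) was at 25.3 to 38.2 CPM in wild type, 17.0 to 21.7 CPM in pdx3-3 and 15.8 to 23.4 CPM in pdx3-4, and fell by 0.75 ± 0.14 log2 units with both alleles together (SE, adjusted p = 0.00136). FSD2 (AT5G51100) was at 17.7 to 22.5 CPM in wild type, 12.9 to 16.2 CPM in pdx3-3 and 13.4 to 16.8 CPM in pdx3-4, and fell by 0.44 ± 0.105 (adjusted p = 0.00601). Both are subunits of a complex at the plastid nucleoid, and neither overlapped wild type in either mutant. A test of FSD1 against FSD2 or FSD3 was not made.

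CSD2 and its copper chaperone varied together from library to library. CCS (AT1G12520), which inserts copper into CSD1 and CSD2, was at 72.1, 86.7 and 98.2 CPM in wild type, at 111, 100 and 80.7 CPM in pdx3-3 and at 119, 90.9 and 97.1 CPM in pdx3-4. Within each genotype the libraries stood in the same order for CCS as for CSD2. Over the 9 libraries Pearson's r of log2 CPM was 0.945 (exact permutation p = 0.000209, 0.00943 adjusted over 45 pairs among the 9 genes and CCS) and Spearman's rho was 0.883 (exact permutation p = 0.00308, adjusted 0.0692). Without wild-type library 1 and pdx3-4 library 1, the farthest from the median of CSD2, r was 0.897. With the genotype means removed r was 0.980, with an exact permutation p of 0.00463, the smallest that reordering libraries within genotypes can give, and 0.208 after adjustment. These pairs were examined after the values had been seen. For CSD1 with CCS, r was 0.743 (exact permutation p = 0.0214, adjusted 0.182) and rho was 0.900 (exact permutation p = 0.00203, adjusted 0.0692), with r at 0.691 without wild-type libraries 1 and 2.

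FSD1 ran the other way. Its r with CSD2 was -0.71 (exact permutation p = 0.0283, adjusted 0.182) and rho was -0.67 (exact permutation p = 0.0589, adjusted 0.331). Without wild-type library 1 and pdx3-4 library 1, r was -0.23, so the relation rests on those libraries. They are the ones at the ends of the FSD1 range, and per length the ratio of FSD1 to CSD2 was 1.30 in wild-type library 1 and 0.353 in pdx3-4 library 1, with 0.496 to 0.848 in the others. Copper/zinc enzymes made up 50.5% to 73.4% of the summed RPKM of the 5 superoxide dismutases.

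**Figure D3:**
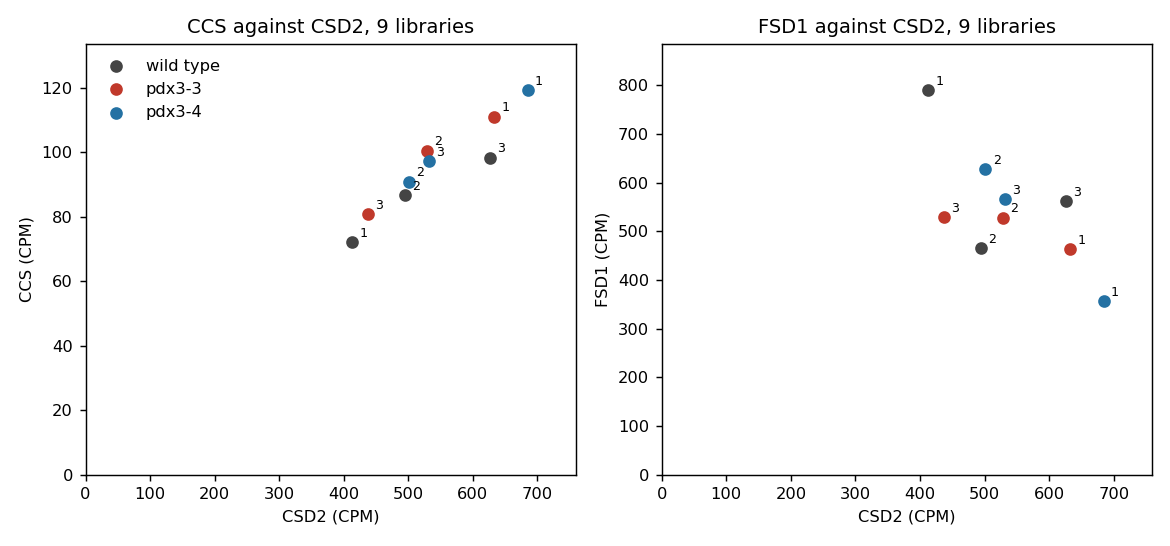
CCS (left) and FSD1 (right) against CSD2 in CPM, each point a library with its replicate number, in grey for wild type, red for pdx3-3 and blue for pdx3-4. CCS rises with CSD2 along 1 line for the 3 genotypes, and the FSD1 panel has wild-type library 1 and pdx3-4 library 1 at opposite corners.

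Polyadenylated RNA holds the primary transcripts of the regulator and not mature miRNA. MIR398C was at 8.65 to 11.4 CPM over the 9 libraries and was not called (log2 fold change -0.01 ± 0.107 with both alleles together, adjusted p = 0.933). Per length it was at 83.9 ± 11.1 RPKM (SD, n = 3) in wild type. Its annotated length is only 115 bases, so this value is not set beside those of the enzyme genes. MIR398B was at 0.44 to 1.44 CPM, and MIR398A had 0 counts in every library. SPL7 binds the core GTAC, and the 250 bases before the FSD1 start, on the minus strand at chr4:12887012-12887261, are shown because they hold it once, in capitals.
FSD1 upstream: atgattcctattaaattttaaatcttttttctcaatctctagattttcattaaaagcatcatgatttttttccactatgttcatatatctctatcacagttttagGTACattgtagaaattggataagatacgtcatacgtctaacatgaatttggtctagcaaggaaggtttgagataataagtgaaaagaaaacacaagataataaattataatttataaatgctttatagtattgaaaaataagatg
The core lies 145 bases before the start. It was in 5 of the 10 genes' regions and in 34.3% of all 27443, and it was found 5 times upstream of MIR398B and 3 times upstream of MIR398C. Of 24 genes of copper supply and copper economy, 19 were tested, and 1 rose and 4 fell with both alleles together, with a median log2 fold change of -0.08; that is a smaller share than the 43.3% called over all genes. Plastocyanin DRT112 (AT1G20340), the main copper protein of the thylakoid lumen, fell by 0.40 ± 0.0576 (SE, adjusted p = 0.000241). The copper chaperone CCH (AT3G56240) fell by 0.69 ± 0.161 (adjusted p = 0.00526), and by 0.45 without wild-type library 3 (adjusted p = 0.0212). Of the ATPases that pass copper into the chloroplast and thylakoid, PAA1 (AT4G33520) fell by 0.28 ± 0.0537 (adjusted p = 0.00159) and PAA2 (AT5G21930) had a log2 fold change of 0.28 ± 0.0774 (adjusted p = 0.0132, 0.0693 with upper-quartile scaling). PAA2 was called higher in pdx3-4 and was not called in pdx3-3. Over the alternatives its log2 fold change was 0.36 to 0.53 in pdx3-4 and -0.04 to 0.21 in pdx3-3.

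Levels of different genes were set side by side per length only. In wild type the order by mean RPKM was CSD2 at 486 ± 102 (SD, n = 3), FSD1 at 390 ± 107, APX1 at 282 ± 61.5 and CSD1 at 236 ± 41.0, then MSD1 at 120 ± 3.69, TAPX at 86.4 ± 4.82, SAPX at 53.5 ± 10.3, CSD3 at 35.2 ± 3.13, CAT1 at 28.6 ± 5.17 and APX2 at 0.0488 ± 0.0482. The libraries of each neighbour in the first 4 overlapped, as did those of CSD3 and CAT1, so their order does not hold beyond the spread. From CSD1 to MSD1, MSD1 to TAPX, TAPX to SAPX, SAPX to CSD3 and CAT1 to APX2 the libraries did not overlap. Relative to their means, MSD1 and TAPX had the narrowest spread between wild-type libraries.

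**Figure D4:**
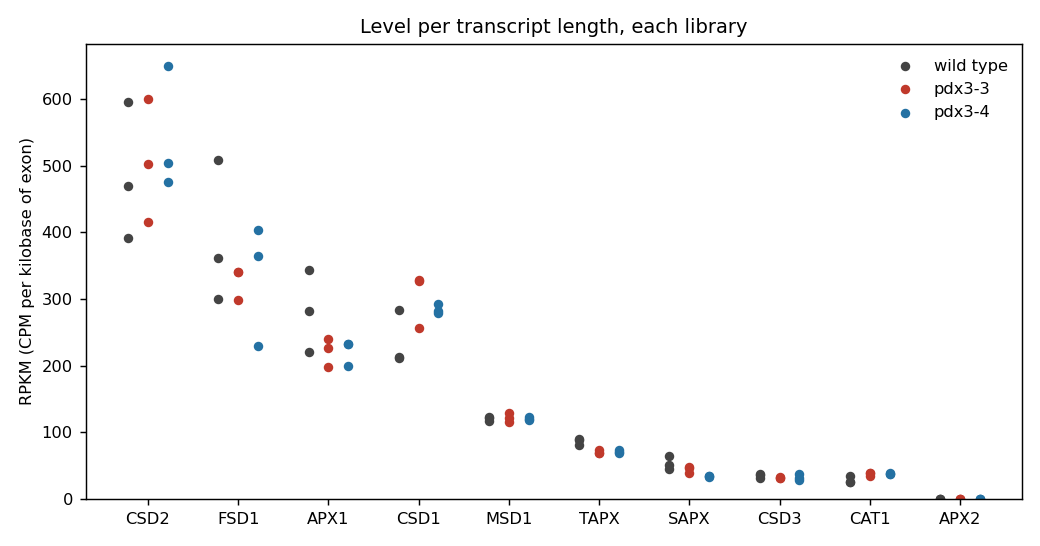
Level per transcript length (RPKM) of the 10 genes in each library, ordered by the wild-type mean. CSD2, FSD1, APX1 and CSD1 form an overlapping upper group between 198 and 650 RPKM, the other tested genes lie below 130 RPKM, and APX2 is near 0.

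The genes whose log2 CPM ran closest to each member over the 9 libraries were listed as a description; these correlations include the differences between genotypes, and the libraries share their depth. TAPX ran with chloroplast genes of carbon and nitrogen assimilation, SBPASE (AT3G55800, r = 0.993) and PRK (AT1G32060, r = 0.993) of the Calvin cycle and glutamine synthetase GS2 (AT5G35630, r = 0.991). APX1 ran closest with the tetratricopeptide repeat-like protein gene AT3G02650 (r = 0.978), with AT4G38020 (r = 0.969) and with the plastid iron store ferritin FER1 (AT5G01600, r = 0.956). SAPX did so with TBL16 (AT5G20680, r = 0.966), CAT1 with the brassinosteroid-pathway factor homolog BEH4 (AT1G78700, r = 0.978), and CSD1 with BAG6 (AT2G46240, r = 0.965) and the vegetative storage protein VSP1 (AT5G24780, r = 0.953). For CSD2 the closest gene of all was CCS. FSD1 and MSD1 had no such close partner, with highest values of 0.899 and 0.909, and CSD3 reached 0.935.

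The counts of the related lists stand beside 21.7% higher and 21.6% lower over all genes with both alleles together, a balance that moves with the scaling, and the lists were not tested as groups. Of the 10 other superoxide dismutase, ascorbate peroxidase and catalase genes and CCS, 9 were tested and 1 rose (CAT3) and 5 fell with both alleles together, with a median log2 fold change of -0.44. Besides CAT2, FSD2 and FSD3 these were the thylakoid lumen protein TL29 (AT4G09010, -0.54 ± 0.142, adjusted p = 0.0110; -0.25 without wild-type library 2, adjusted p = 0.0160), which resembles ascorbate peroxidases, and APX5 (AT4G35970, -0.65 ± 0.234, adjusted p = 0.0452, and up to 0.219 under the alternatives). APX3 (AT4G35000), the peroxisomal membrane enzyme, was at -0.09 ± 0.0524 (adjusted p = 0.173), APX6 (AT4G32320) at -0.11 ± 0.056 (adjusted p = 0.138) and CCS at 0.17 ± 0.126 (adjusted p = 0.309). MSD2 (AT3G56350) had 0 counts in every library.

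Of 10 genes that recycle ascorbate and glutathione, 1 rose and 5 fell with both alleles together (median -0.16). The monodehydroascorbate reductase MDAR3 (AT3G09940), of the cytosol, had 8, 50 and 8 counts in wild type, 143 to 212 in pdx3-3 and 53 to 105 in pdx3-4. It rose by 2.35 ± 0.484 log2 units (SE, adjusted p = 0.00259), and by 3.72 without wild-type library 2; in pdx3-4 alone the call was lost in 9 of 21 alternatives, with adjusted p-values up to 0.148. The organellar reductases MDAR6 (AT1G63940) and GR2 (AT3G54660) fell by 0.39 ± 0.0575 (adjusted p = 0.000311) and by 0.41 ± 0.0752 (adjusted p = 0.00134), and the glutathione reductase GR1 (AT3G24170) fell by 0.32 ± 0.0708 (adjusted p = 0.00419). Of 9 genes of ascorbate and glutathione synthesis, 1 rose and 2 fell (median -0.08; 6 were called with upper-quartile scaling). VTC2 (AT4G26850), which makes the committed step to ascorbate, fell by 1.19 ± 0.103 (adjusted p = 6.71e-06) and VTC4 (AT3G02870), a phosphatase of the same pathway, by 0.55 ± 0.08 (adjusted p = 0.000268). The glutathione synthetase GSH2 (AT5G27380) rose by 0.47 ± 0.0509 (adjusted p = 3.49e-05), and GLDH (AT3G47930), the last enzyme of ascorbate synthesis, was at -0.16 ± 0.0615 (adjusted p = 0.0638).

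Of 15 peroxiredoxins and glutathione peroxidase-like enzymes, 14 were tested, and 3 rose and 5 fell (median -0.15; 5 were called in all without pdx3-3 libraries 1 and 2). Those that fell included the chloroplast peroxiredoxins PRXQ (AT3G26060, -0.54 ± 0.0674, adjusted p = 9.55e-05), PRXIIE (AT3G52960, -0.40 ± 0.0787, adjusted p = 0.00189) and 2CPB (AT5G06290, -0.32 ± 0.0602, adjusted p = 0.00134). GPX5 (AT3G63080) rose by 0.38 ± 0.0674 (adjusted p = 0.00105). Over the alternatives its log2 fold change was 0.44 to 0.63 in pdx3-4 and 0.07 to 0.26 in pdx3-3. Of 10 genes of enzymes that make superoxide or hydrogen peroxide, 6 were tested, and 3 rose and 2 fell (median 0.34). The plasma membrane NADPH oxidase RBOHD (AT5G47910) rose by 1.57 ± 0.132 (adjusted p = 5.42e-06) and the polyamine oxidase PAO1 (AT5G13700) by 1.32 ± 0.181 (adjusted p = 0.000177). PAO1 was low, at 0.957 to 1.39 CPM in wild type and at most 3.62 CPM in the mutants. The photorespiratory glycolate oxidases GOX1 (AT3G14420) and GOX2 (AT3G14415) fell by 0.48 ± 0.0681 (adjusted p = 0.000225) and 0.41 ± 0.062 (adjusted p = 0.000372). The fall of TAPX, at -0.34 with both alleles together, was within the range of those of the named chloroplast peroxiredoxins (-0.32 to -0.54). It was smaller than the falls of GOX1 and GOX2, and the median of the 5 leaf markers was -0.43. These differences were not tested.

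**Figure D5:**
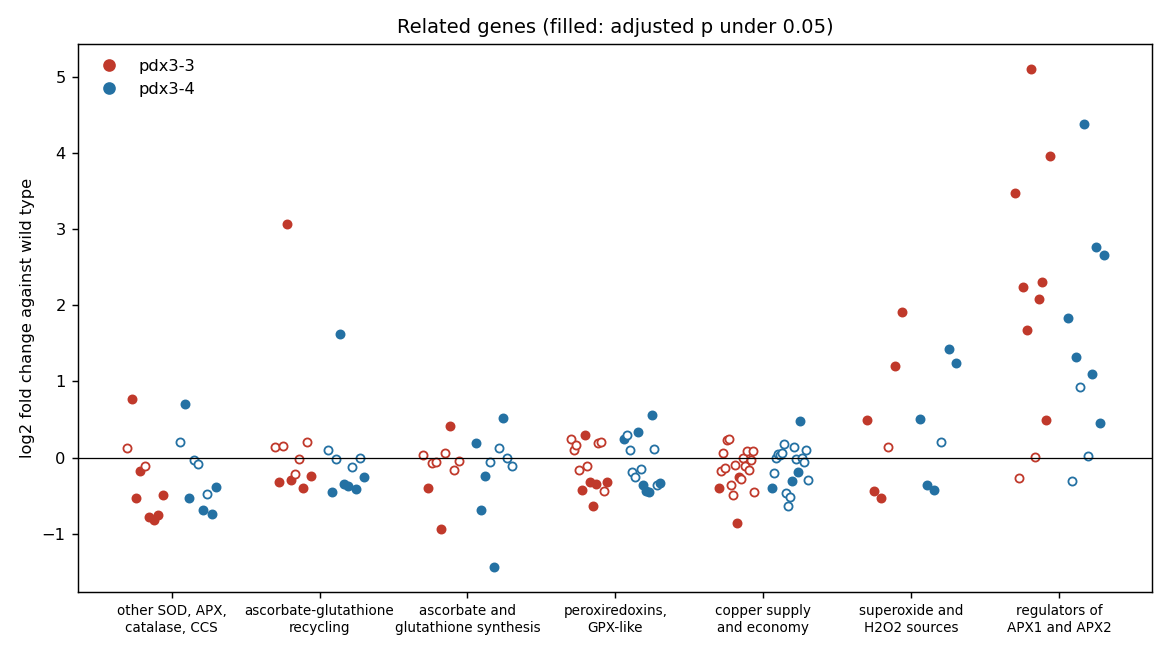
Log2 fold change against wild type of the tested genes of the 7 related lists in pdx3-3 (red) and pdx3-4 (blue), filled where the adjusted p is under 0.05. Most filled points of the enzyme lists lie between 0 and -1, and those of the possible regulators of APX1 and APX2 lie above 0, up to 5.11 for ZAT7 in pdx3-3.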

How the data were processed

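RNA of 9 libraries, 3 a genotype, was analysed from the counts per gene that the authors deposited, 1 table a library, not normalized. Per the submitters' processing notes, reads went through FastQC and TopHat2 (version 2) with the build TAIR10; no source used here says which program counted reads, whether by strand, or how multiply mapped reads were treated. Groups came from the labels. Replicates differed by more than sampling noise (chi-square per degree of freedom 5.34 to 25.5). filterByExpr left 18783 of 33602 genes, TMM factors were 0.949 to 1.02, and edgeR 4.0.16 in R 4.3.3 tested genotype in 1 fit with 6 residual degrees of freedom; with 3 against 3 a single-gene permutation test cannot go below 0.1. SE is the log2 fold change over the square root of F. Log2 CPM for correlations used a prior count of 2. Coordinates, exon lengths and sequences came from TAIR10.1; the count tables carry none. Alternatives used DESeq2 1.42.0, limma 3.58.1, other scalings, filters, designs and left-out libraries. Named genes were all members, up to 4 tested genes a list, by smallest adjusted p in both alleles together, all of the first list, and the 3 closest genes of each member by r, with a mean of at least 5 CPM. The members, the 10 lists and the alternatives were chosen with earlier results of these data known. Depth gives counting error only.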

Additional observations from a re-analysis of the deposited data

Results flagged for a closer look

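The alleles differed, by edgeR's quasi-likelihood test of pdx3-3 against pdx3-4, for PDX3 (log2 fold change -2.29 ± 0.118 SE, adjusted p = 8.56e-06). Of the 10 tested genes listed as possible regulators of APX1 and APX2, 4 were higher in pdx3-3. Those of the 4 that are named here were ZAT10 (1.64 ± 0.188, adjusted p = 0.00103) and ZAT12 (1.30 ± 0.238, adjusted p = 0.0108, and 0.0612 without pdx3-4 library 3).
RBOHD (0.67 ± 0.14, adjusted p = 0.0203) and VTC2 (0.50 ± 0.124, adjusted p = 0.0401) were also higher in pdx3-3 than in pdx3-4, and GPX5 (-0.37 ± 0.076, adjusted p = 0.0185) and PAA2 (-0.39 ± 0.0884, adjusted p = 0.0267) were lower.
SCR (0.30 ± 0.074, adjusted p = 0.0384), a root and bundle sheath gene, and SEP3 (1.43 ± 0.364, adjusted p = 0.0437), a floral organ gene under 5 CPM in each library, were higher in pdx3-3. The differences for RBOHD, VTC2, GPX5, PAA2, SCR and SEP3 did not pass when some single libraries were left out, with adjusted p-values of 0.105 (RBOHD without pdx3-4 library 3), 0.181 (VTC2 without pdx3-4 library 3), 0.0931 (GPX5 without pdx3-4 library 3), 0.133 (PAA2 without pdx3-4 library 3), 0.144 (SCR without pdx3-4 library 2) and 0.175 (SEP3 without pdx3-4 library 3) at the highest. Without pdx3-3 libraries 1 and 2 together, the adjusted p was 0.357 for VTC2, 0.245 for GPX5, 0.499 for PAA2, 0.277 for SCR and 0.115 for SEP3. None of the 9 tested enzyme genes described in the report was called between the alleles by this test.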

How the results depend on the processing

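Of the 9 genes, 3 were called in pdx3-3, against 1 in a fit of only the groups compared and 1 with pdx3-3 libraries 1 and 2 left out together, where the remaining library is assumed to vary like the other groups; between the alleles, 1 was called in a fit of only the groups compared and 1 with DESeq2, against 0. Over all genes, leaving out those 2 libraries gave 4014 calls in pdx3-3 (6846 in the main fit) and 358 between the alleles (1157). Leaving out each library in turn gave 1 to 3 of the 9 genes in pdx3-3, 2 to 4 in pdx3-4, 0 to 1 between the alleles and 3 to 5 in both alleles together, and over all genes 5259 to 6832, 5837 to 7483, 391 to 1816 and 6988 to 7929. No called value changed sign under any alternative. Upper-quartile scaling moved the median of all genes by -0.12 (log2) in each allele and the share of calls that were higher from 52.0% to 34.1% in pdx3-3, from 53.2% to 36.8% in pdx3-4 and from 50.2% to 33.6% in both together; scaling by library size only gave 62.1%, 61.5% and 59.8%. With upper-quartile scaling CSD3 passed in both alleles (0.0240 and 0.0364) and MSD1 with both together (0.0380). Deviations of same-numbered libraries of different genotypes had r of -0.15 to 0.34, over 0.1 in 2 of 9 pairs. The highest was for wild-type library 1 with pdx3-4 library 1. Differently numbered libraries were not compared, so this check cannot tell whether the numbers pair samples. A fit with the replicate number as a block called 2, 4, 0 and 4 of the 9 genes in the 4 comparisons, 6470, 6918, 1089 and 7746 of all genes, and lost CAT1 in pdx3-3 (0.0596). A fit of only the groups compared gives no value for both alleles together. APX2 is limited by depth, and FSD1, CSD2 and APX1 by the spread between libraries.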
